A study of Mus musculus with 41 samples.

Results

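RNA polymerase II (Pol II) was mapped by chromatin immunoprecipitation and sequencing in mouse primary cortical neurons before and after depolarization with KCl, in neurons labelled LSD1n WT and LSD1n KO. The comparison uses the 4 Pol II libraries of the series, out of 41 samples, of which 27 have a list of called regions. They are LSD1n WT at 0 h, LSD1n WT at 1 h, LSD1n KO at 0 h and LSD1n KO at 1 h, where the time is that in a bath of 55 mM KCl and all neurons were 10 days in vitro. LSD1 is a histone lysine demethylase and LSD1n its neuron-specific splice form; LSD1n KO names neurons in which that form was deleted. Each group has 1 library, and nothing in the labels says how many animals or cultures went into it. The question taken here is which Pol II sites differ between 1 h and 0 h in the same way in both genotypes. Lists of the other antibodies, set beside the Pol II sites, come from neurons labelled LSD1n WT, LSD1n KO, wild type, R26_LSD1n and R26_LSD1c.

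Pol II transcribes the protein-coding genes. Its sites in such data lie mostly where the enzyme pauses after starting a gene, and also at active enhancers, which are transcribed at a low level. Depolarization opens voltage-gated calcium channels and within minutes induces immediate early genes such as Fos, Egr1 and Arc, together with enhancers that carry H3K4me1. H3K4me2 marks both promoters and enhancers, and H3K36me3 marks the bodies of genes that are being transcribed.

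The names written inside all 4 lists give the opposite genotype to the sample labels, so which pair is WT and which is KO is uncertain. Both sources put the same 0 h list with the same 1 h list. The groups follow the labels, and the results below are those that both pairs share. The antibody was sc-899X, and all 4 libraries carry the same title prefix. They held 14622895 tags (WT, 0 h), 21641320 tags (WT, 1 h), 16651225 tags (KO, 0 h) and 22336241 tags (KO, 1 h), so the 1 h library was 1.48 times as deep as its 0 h partner in WT and 1.34 times in KO. Depth and KCl time go together in both pairs and cannot be told apart for any count of sites below. With 1 library per group no difference was tested; brackets hold 95% exact intervals, which allow for counting error alone.

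Both pairs had somewhat more Pol II sites after KCl, and many more candidate sites that the caller then discarded. On chromosomes 1 to 19 the label WT went from 12718 sites to 13839, a log2 ratio of 0.12 (0.09 to 0.16). The label KO went from 13821 sites to 15712, a log2 ratio of 0.19 (0.15 to 0.22). Before the filter on local signal, which asks for 4-fold more tags in the site than in the surrounding 10 kb, the authors' caller had 21518 and 30416 candidates in WT and 27823 and 39925 in KO. These counts cover the whole genome, and at 1 h they were 1.41-fold higher in WT and 1.43-fold higher in KO. The local filter removed 38.9% of candidates at 0 h and 52.8% at 1 h in WT, and 48.7% and 59.3% in KO. Candidates dropped by this filter did not reach 4-fold over the surrounding 10 kb. The lists do not hold them, so their width and position are not known here. Whether the larger number of candidates at 1 h comes from depth was not tested.

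The 4 lists shared most of their sites with each other, between 63.0% and 77.8% for each ordered pair. Where a locus had 1 site in each of 2 lists, the median distance between the sites was 23 to 30 bp, within their width of 201 bp. Sharing did not sort by time or by label alone. The longest list, KO at 1 h, held the largest share of every other list: 77.8% (77.0 to 78.5) of WT 0 h sites, 76.1% (75.4 to 76.8) of WT 1 h sites and 73.9% (73.2 to 74.7) of KO 0 h sites.

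Overlapping sites of the 4 lists were joined into 23674 loci. Of these, 8322 (35.2%) were called in all 4 lists, and 952 were called at 1 h in both labels and at 0 h in neither. The opposite class, called at 0 h in both labels and at 1 h in neither, held 369 loci. As a share of all loci these are 4.02% and 1.56%. Of the 17201 loci with a site in WT at either time, calls at 1 h alone made up 26.1%, and of the 19123 in KO 27.7%, and calls at 0 h alone 19.5% and 17.8%. Loci called in 1 list only were far more numerous than either shared class: 3321 in KO at 1 h, 2601 in KO at 0 h, 2469 in WT at 1 h and 1861 in WT at 0 h.

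**Figure D1:**
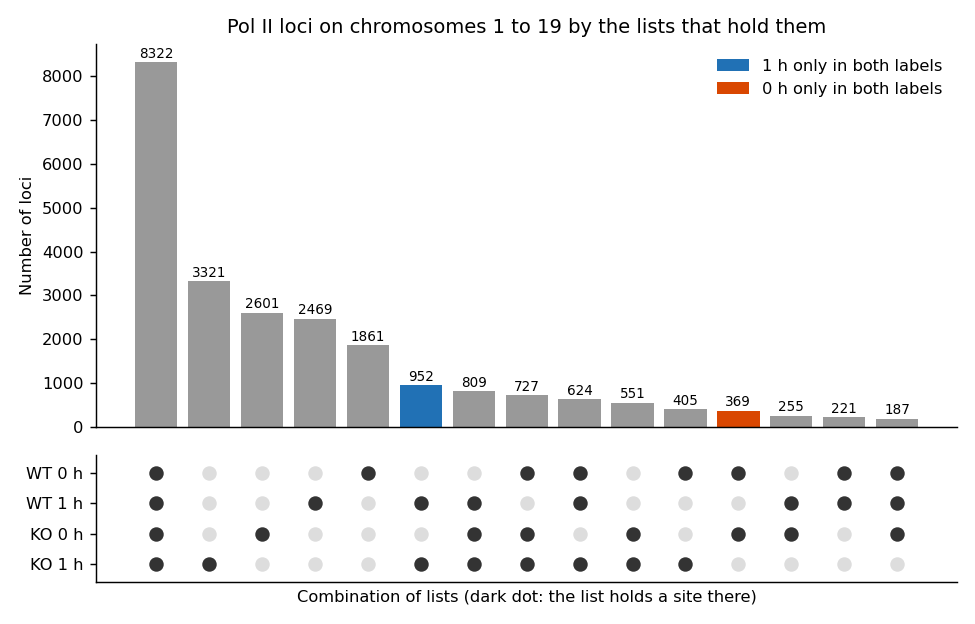
Number of Pol II loci on chromosomes 1 to 19 (vertical axis) for each combination of the 4 lists (columns; a dark dot marks a list that holds a site there). Loci in all 4 lists number 8322, those at 1 h only in both labels 952 (blue) and those at 0 h only in both labels 369 (orange).

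Calls at 1 h alone met the same pattern in the other label more often than the opposite one, at a rate no higher than that pattern's share of all loci. Of the 4485 loci called at 1 h alone in WT, 21.2% (20.04 to 22.5) were also called at 1 h alone in KO, and 5.69% (5.03 to 6.40) showed the opposite, a call at 0 h alone. Over all 23674 loci these patterns of KO made up 22.4% and 14.4%. From the side of KO, 18.0% (16.9 to 19.02) of 5302 loci had the same pattern in WT and 7.64% (6.94 to 8.39) the opposite one, against 18.9% and 14.2% of all loci. For calls at 0 h alone the 2 outcomes were about as frequent from the side of WT, with 10.98% (9.94 to 12.1) the same and 12.05% (10.96 to 13.2) opposite among 3362 loci. From the side of KO they were 10.8% (9.79 to 11.9) and 7.47% (6.61 to 8.41) of 3412. The comparison with all loci is a loose one, since those include the loci called in the other label alone. The 1 h lists are also the longer ones. When each list was shortened to its first 12718 sites, 643 loci were called at 1 h only in both labels and 393 at 0 h only, and among the first 5000 sites of each list the counts were 304 and 272. A site listed after the cut counts as absent, so these loci need not belong to the same class in the full lists.

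Some of these loci lie beside a site of the other time, in either label. Of the 952 loci called at 1 h only in both labels, 337 (35.4%) lay within 1 kb of a 0 h site and 551 (57.9%) lay over 5 kb from any. Of the 369 loci called at 0 h only in both labels, 257 (69.6%) lay within 1 kb of a 1 h site and 87 (23.6%) over 5 kb. The median distance to the nearest site of the other time was 9448 bp for the first class and 293 bp for the second. Most lost loci thus had a 1 h site within 1 kb, whereas most gained loci had no 0 h site within 5 kb. Both classes were mostly far from the loci called in all 4 lists: 862 of the 952 (90.5%) and 302 of the 369 (81.8%) lay over 5 kb from one.

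Joining sites within 5 kb into clusters removes such small shifts and leaves the same direction. There were 18100 clusters, of which 9432 had a site in all 4 lists. New clusters, with sites in both 1 h lists and neither 0 h list, numbered 738 (4.08% of clusters), and lost clusters 190 (1.05%). Of the 14172 clusters with a site in WT 19.1% had sites at 1 h alone, and of the 15980 in KO 21.8%, and 11% and 10.7% at 0 h alone. Of the 2700 clusters with sites at 1 h alone in WT, 27.3% (25.7 to 29.1) had the same pattern in KO and 4.41% (3.66 to 5.25) the opposite one, against 19.3% and 9.49% of all clusters. For sites at 0 h alone the outcomes were closer in frequency. Of 1564 such clusters in WT, 12.1% (10.6 to 13.9) had the same pattern in KO and 14.8% (13.1 to 16.7) the opposite one. Of 1717 in KO, 11.1% (9.62 to 12.6) had the same pattern in WT and 6.93% (5.77 to 8.24) the opposite one. Over all clusters the same and opposite patterns made up 9.49% and 19.3% in KO, and 8.64% and 14.9% in WT. With lists of equal length new and lost clusters numbered 378 and 217, and with each list cut to its first 5000 sites 225 and 214. A site listed after the cut counts as absent, so these counts are not parts of the 738 and 190. They cannot show where in the lists the excess of new over lost clusters lies.

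Clusters occupied at both times gained sites at 1 h about as often as they lost them. Between 89.8% and 90.8% of the clusters of each list held a single site, and the mean was 1.10 to 1.11 sites. Growth was defined as at least 2 more sites and at least 2 times as many in both labels, and 0 clusters met it (12 in WT alone, 0.105%, and 18 in KO alone, 0.144%). The reverse rule found 1 cluster in both labels (0.00901%; 0.127% in WT and 0.0911% in KO), on chromosome 16 (77236431 to 77239540), with 3 sites at 0 h and 1 at 1 h in each label. Among the 9432 clusters of all 4 lists, 7895 kept the same number of sites in both labels, 95 had more and 92 had fewer at 1 h in both. The cluster with the most sites, on chromosome 13 (23837253 to 23855702), held 6 and 7 sites in WT and 8 and 7 in KO at 0 h and 1 h.

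The order of the deposited list was taken as rank, since the deposited score is the same for every site; what the authors sorted by is not given in the sources used here. First-listed sites were nearly all called at both times. In WT at 1 h, 93.3% (91.8 to 94.5) of the sites in the first decile of the list overlapped a 0 h site, and 10.9% (9.32 to 12.7) of those in the last. In KO at 1 h the shares were 96.6% (95.5 to 97.4) and 5.98% (4.86 to 7.27). The 0 h lists fell less, to 26.6% (24.2 to 29.1) in WT and 25.6% (23.3 to 28.0) in KO.

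**Figure D2:**
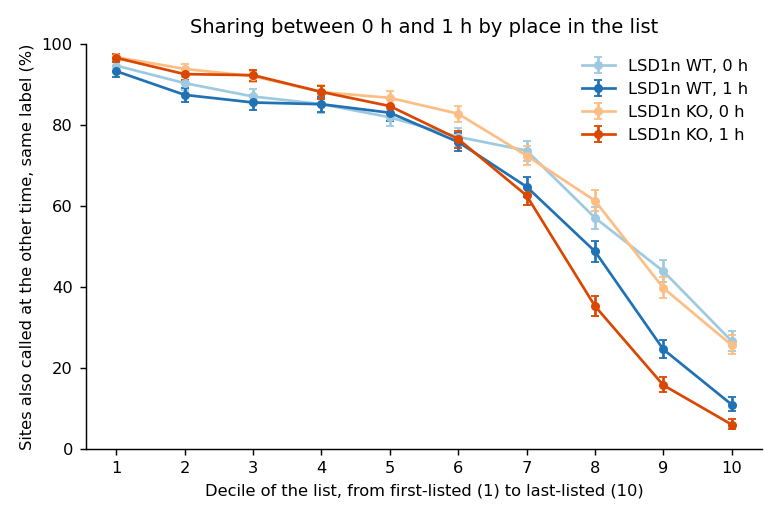
Share of Pol II sites that overlap a site of the same label at the other time (vertical axis, %) by decile of the list (horizontal axis; 1 holds the first-listed sites), with 95% exact intervals; 1 line per list. All 4 lists start between 93.3% and 96.7% and the 1 h lists end lowest, at 10.9% and 5.98%.

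Loci called at 1 h only in both labels sat low in the 1 h lists. Their median place was at 76.2% of the list in WT and 75.0% in KO, against 35.6% and 30.3% for loci of all 4 lists. Only 12 of the 952 were among the first 1000 entries in WT and 4 in KO. Loci called at 0 h only in both labels sat at 66.0% and 60.0% of the 0 h lists. Most gains were therefore in the later part of the lists, and the part that the greater depth at 1 h has in them was not tested.

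The first-listed new clusters are the exceptions. The first by its rank in both 1 h lists lies on chromosome 2 (157391921 to 157392495), at place 3200 of 13839 in WT and 2646 of 15712 in KO. The second, on chromosome 8 (4253018 to 4259280), held 3 sites in WT and 2 in KO, at best places 3539 and 2882. The cluster on chromosome 10 (36858601 to 36860771) held 2 sites and 1 site, at places 3034 and 5564. All 10 new clusters selected this way overlapped an H3K4me2 region in WT neurons before KCl, and 7 of 10 overlapped H3K4me1 in at least 1 of its 4 lists. Over all 18100 clusters these shares were 58.6% and 51.3%, and over all 738 new clusters 52.2% (48.5 to 55.8) and 75.5% (72.2 to 78.5), so the H3K4me2 of the first-listed ones was not a trait of the whole class. Of the 5 first-listed lost clusters, 0 overlapped H3K4me2 at either time and 3 overlapped H3K4me1 in some list. Over all 190 lost clusters 15.8% (10.9 to 21.8) overlapped H3K4me2 at 0 h or 1 h and 33.2% (26.5 to 40.3) H3K4me1 in some list, against 63.3% and 51.3% of all clusters. The first of them, on chromosome 11 (75581965 to 75582992), had 2 sites at 0 h in each label, at best places 1921 in WT and 2707 in KO.

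At loci present in all 4 lists the place in the list can be followed directly. The 8322 loci were ranked again among themselves in each list, and a change of rank of at least 2-fold was counted. Ranks are relative: a locus that moves up pushes others down, and a fall lifts others. Such effects are largest near the head of the list. In WT 923 loci (11.1%) moved up and 864 (10.4%) down at 1 h, and in KO 411 (4.94%) and 386 (4.64%). Both labels agreed for 166 loci moving up (1.99%) and 149 moving down (1.79%), and disagreed for 18 (0.216%; up in WT, down in KO) and 36 (0.433%; down in WT, up in KO). Of the 923 loci that moved up in WT, 687 (74.4%) moved up by any amount in KO. Across the 8322 loci the rank change in WT and in KO, which share no library, had a Spearman rho of 0.25, and 0.23 with the 0 h lists exchanged between labels. The difference between labels at 0 h and that at 1 h had a rho of 0.02. These coefficients describe loci, which are not independent replicates.

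**Figure D3:**
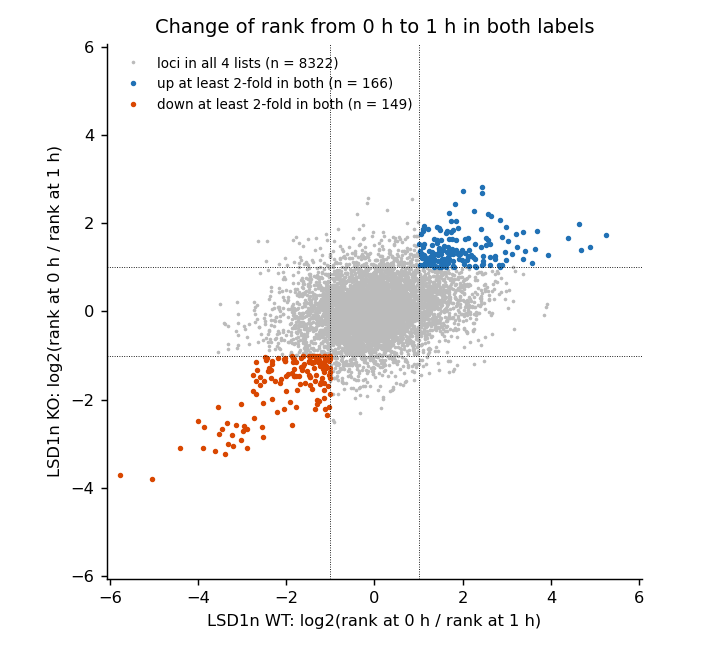
Change of rank from 0 h to 1 h, as log2 of rank at 0 h over rank at 1 h, in the label WT (horizontal axis) and the label KO (vertical axis) for the 8322 loci of all 4 lists; positive values are moves toward the head of the list, and dotted lines mark 2-fold. Blue points are the 166 loci up in both labels and orange points the 149 down in both.

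The list of WT at 1 h stood apart in order from the other 3. Its ranks had a rho of 0.74 with each 0 h list and 0.85 with KO at 1 h, while the other 3 lists had 0.86 to 0.88 among themselves. The larger number of rank changes in WT goes with this library, and whether the labels differ in response was not tested. In the plot of rank changes the blue points reach further along the WT axis than along the KO axis.

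Loci that moved up in both labels were chosen by these ranks, so a place further down at 0 h than at 1 h is built in. Among the 8322 loci ranked again, their median place went from 3090 to 716 in WT and from 3706 to 1276 in KO. By the smaller of the 2 changes the first is on chromosome 5 (87233177 to 87233417), which went from rank 1971 to 365 in WT and from 4126 to 585 in KO, a move of 7.05-fold in KO. The locus on chromosome 7 (87484910 to 87485140) went from 3028 to 561 and from 4394 to 684. That on chromosome 4 (48057942 to 48058158) went from 2626 to 105 in WT (25.0-fold) and from 3245 to 818 in KO (3.97-fold), an unequal move.

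A few loci moved up into or within the first 100 places. Of 78 loci among the first 100 at 1 h in both labels, 57 were already among the first 100 at 0 h in both, and 7 had moved up at least 2-fold in both. On chromosome 12 (86814756 to 86814984) a locus went from rank 114 to 3 in WT and from 145 to 44 in KO. On chromosome 10 (80138893 to 80139116) one went from 104 to 37 and from 76 to 21, and on chromosome 8 (73222809 to 73223029) one went from 22 to 7 and from 32 to 9. On chromosome 11 (77499582 to 77499804) the ranks were 120 and 56 in WT and 168 and 61 in KO. These positions were chosen after their values were seen. In these 4 both 1 h ranks were ahead of both 0 h ranks; among the other 3 a locus on chromosome 8 (87502469 to 87502683) had rank 47 in KO at 1 h, behind its rank 42 in WT at 0 h.

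Many of the loci that moved down lie where every antibody gave a peak. Of the 149, 35 (23.5%) overlapped peaks of all 8 antibody targets of the series, against 54 of the 8322 (0.649%), and 0 of the 166 that moved up did. The largest falls are of this kind: chromosome 3 (5860593 to 5860808) went from rank 11 to 364 in WT and 8 to 111 in KO, and chromosome 11 (108873054 to 108873261) from 4 to 217 and 6 to 79. Left aside, 114 loci moved down in both labels, some of them close to such regions. By the smaller of the 2 changes, the largest falls among them are on chromosome 9 (3002890 to 3003091 and 3032275 to 3032485). Both loci overlapped every list of H3K4me1, H3K4me2 and H3K36me3 used here. The next, on chromosome 2 (181316514 to 181316732), went from 1142 to 5743 and from 1166 to 4604. Regions with peaks of all 8 targets also held the head of every list. The loci of chromosome 2 (98507204 to 98507405) and chromosome 9 (35112824 to 35113033) took the first 2 places in all 4 lists and overlap such peaks. The first locus outside such regions, on chromosome 11 (69571977 to 69572190), was at places 5 and 4 in WT and 4 and 3 in KO, and its H3K4me2 region was called at both times.

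Pol II sites that appeared at 1 h in both labels overlapped H3K4me1 more often than constant sites. With the H3K4me1 list of LSD1n WT at 1 h, 46.5% (43.3 to 49.8) of the 952 loci overlapped the mark, against 26.3% (25.4 to 27.3) of loci in all 4 lists and 28.9% (28.3 to 29.5) of all loci. Loci called at 0 h only in both labels stood at 24.1% (19.8 to 28.8). Loci called in a single 1 h list, in 1 label, stood at 33.4% (32.2 to 34.6). The share was highest, at 55.5% (51.3 to 59.7), for the 551 loci over 5 kb from any 0 h site. Within a wider range the order was the other way: a region of this list lay within 5 kb of 81.9% of the 952 loci and 86.7% of the loci in all 4 lists.

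The mark was there at many of these loci before KCl. In the 0 h lists H3K4me1 covered 35.5% (32.5 to 38.6) of the 952 loci in WT and 30.7% (27.8 to 33.7) in KO, against 14.6% (13.8 to 15.3) and 10.9% (10.2 to 11.6) of loci in all 4 Pol II lists. For the 551 distant loci the shares at 0 h were 45.0% (40.8 to 49.3) and 38.5% (34.4 to 42.7). A region called at 1 h and not at 0 h lay over 17.9% of the 952 loci in WT and 23.5% in KO, close to the 17.6% and 22.7% of constant loci. All 4 H3K4me1 lists thus gave the same order. Counted over all loci of a class, the part that was gained with KCl was about as frequent at constant sites. More of the 952 loci had the mark at 0 h already, so a smaller part of them could gain it. Among loci without the mark at 0 h the gained part is therefore larger at the 952 loci. This difference was not tested.

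H3K4me2 gave another picture. With the list of LSD1n WT at 1 h it overlapped 51.5% (48.2 to 54.7) of the loci called at 1 h only in both labels, 61.7% (60.7 to 62.8) of those in all 4 lists and 25.6% (24.4 to 26.7) of those in a single 1 h list. At 0 h the shares were 62.3% (59.1 to 65.4), 85.2% (84.4 to 85.9) and 32.2% (31.0 to 33.5). The loci gained in both labels thus lay between constant loci and loci called once, with no overlap of the intervals. Loci called at 0 h only in both labels had 45.8% (40.6 to 51.0) at 1 h and 60.4% (55.2 to 65.5) at 0 h. These intervals overlap those of the gained loci, so the middle level was not particular to gains. Counted together at 1 h, 21.5% of the 952 loci had H3K4me1 alone, 26.5% H3K4me2 alone, 25.0% both and 27.0% neither. In all 4 lists the same shares were 6.72%, 42.1%, 19.6% and 31.6%.

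**Figure D4:**
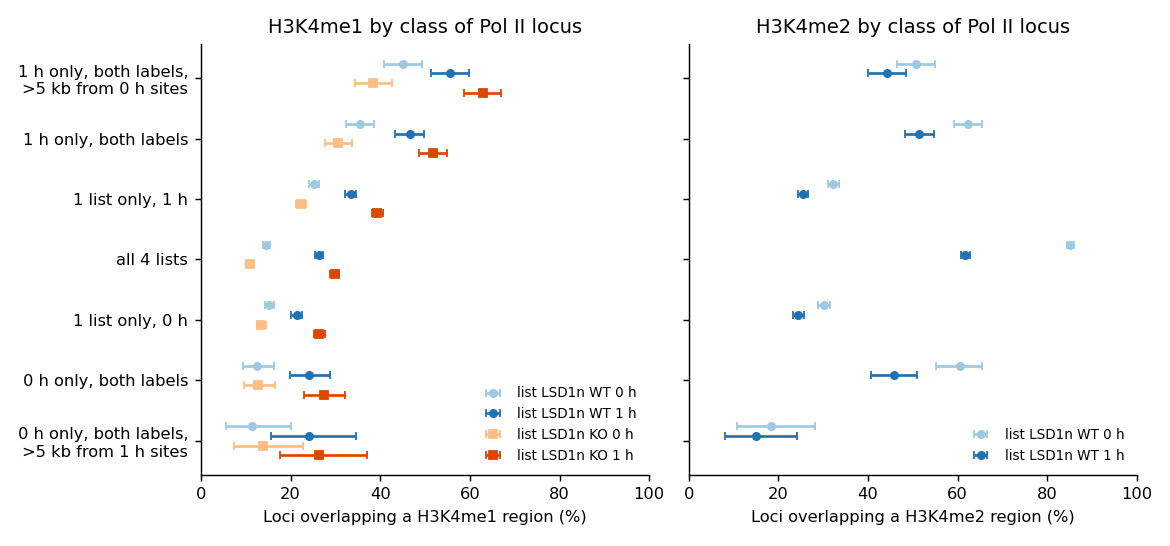
Share of Pol II loci that overlap a region of H3K4me1 (left) or H3K4me2 (right), in %, by class of locus (rows), with 95% exact intervals; each colour is 1 list of the mark. H3K4me1 is highest in the 2 upper rows with each of its 4 lists, and the loci lost at 1 h over 5 kb from any 1 h site have the lowest H3K4me2 share, 14.9% at 1 h.

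Loci lost at 1 h in both labels and far from any 1 h site seldom overlapped H3K4me2. Of the 87 loci over 5 kb from any 1 h site, 63 (72.4%) had neither mark at 1 h. H3K4me2 covered 18.4% (10.9 to 28.1) of them at 0 h, against 85.2% of constant loci. Over all 369 lost loci it covered 60.4% (55.2 to 65.5) at 0 h, so the low share was not a trait of the whole class. H3K4me1 did not set them apart from constant loci beyond counting error: it covered 11.5% (5.65 to 20.1) in WT and 13.8% (7.34 to 22.9) in KO at 0 h, and 24.1% (15.6 to 34.5) and 26.4% (17.6 to 37.0) at 1 h. Their counterparts gained at 1 h had neither mark in 25.95% (22.3 to 29.8) of cases, and the intervals do not overlap. Loci in a single 0 h list had neither in 63.2% (61.7 to 64.6).

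Because weak and strong Pol II sites differ in these marks, the classes were also compared within quintiles of the 1 h lists. H3K4me1 became more frequent down the list in both classes: in loci of all 4 lists, ordered by WT at 1 h, it went from 19.9% in the first quintile to 44.3% in the last. In the fourth quintile it covered 48.2% (42.5 to 54.0) of the loci called at 1 h only in both labels and 34.8% (32.3 to 37.4) of those in all 4 lists, and in the last quintile 54.7% (49.6 to 59.7) and 44.3% (39.0 to 49.7). Ordered by KO at 1 h, the fourth quintile gave 49.5% (44.3 to 54.6) and 36.2% (32.8 to 39.7), and the last 55.7% (50.2 to 61.0) and 42.6% (28.3 to 57.8), from 47 loci in the latter class. The difference of 20.2 points over whole lists was therefore 10.4 to 13.4 points in the last 2 quintiles. The intervals of the classes were apart in the fourth quintile of both lists and in the third of WT, and overlapped in all other quintiles. The gained loci had the lower share in the first quintile, with a difference of -5.57 points in WT and -1.62 points in KO, and in the second of KO, with -2.96 points. H3K4me2 was lower in the gained loci, with intervals apart, in the last 2 quintiles of both lists, at 42.7% (37.8 to 47.8) against 71.1% (66.0 to 75.9) in the last quintile of WT.

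**Figure D5:**
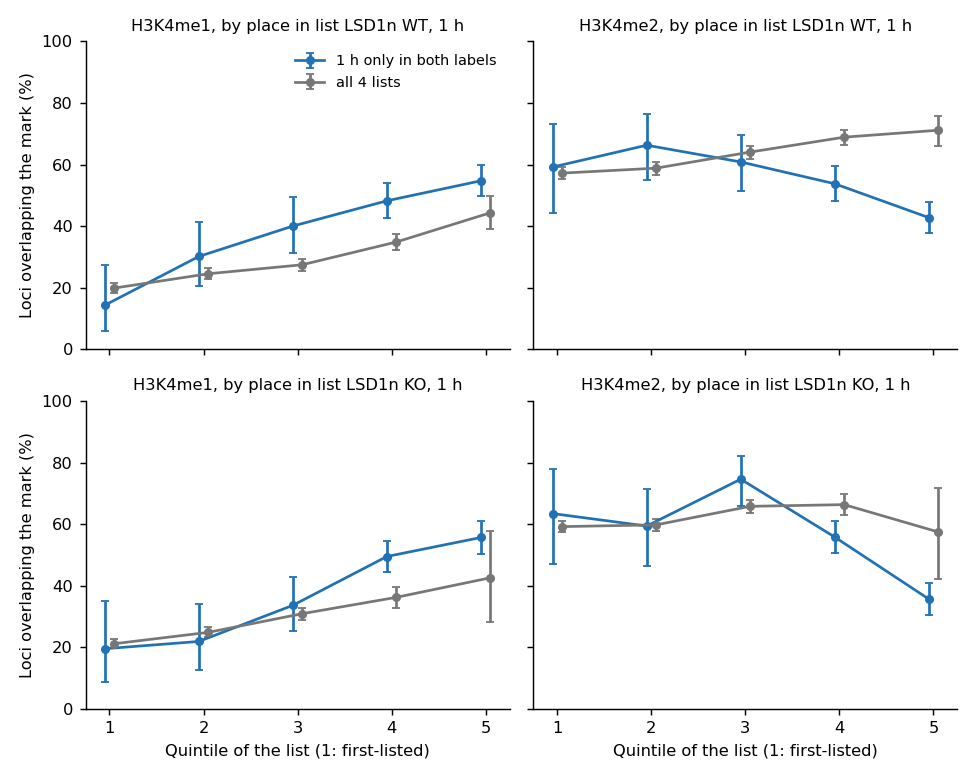
Share of Pol II loci that overlap H3K4me1 (left) or H3K4me2 (right) of LSD1n WT at 1 h, in %, by quintile of the list of WT at 1 h (top) and KO at 1 h (bottom), with 95% exact intervals. Loci called at 1 h only in both labels (blue) lie above loci of all 4 lists (grey) for H3K4me1 in the fourth quintile, and below them for H3K4me2 in the last.

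The H3K4me1 difference was smaller when calls were judged within 1 label, whatever the other label showed. Sites at 1 h alone by this rule include those gained in both labels. They are set beside sites of both times in that label, not beside loci of all 4 lists. In the fourth quintile of WT at 1 h, sites called at 1 h alone in that label overlapped H3K4me1 in 42.5% (39.7 to 45.4) of cases and sites of both times in 34.8% (32.4 to 37.2), and in KO the shares were 38.2% (35.8 to 40.6) and 36.3% (33.9 to 38.8). In the last quintile of WT at 1 h, sites called at 1 h alone in that label overlapped H3K4me1 in 42.1% (40.1 to 44.2) of cases and sites of both times in 40.9% (36.6 to 45.4). In KO these were 33.7% (31.9 to 35.5) and 37.8% (32.7 to 43.2). Only the fourth quintile of WT had intervals apart among these 4 comparisons. Calls judged within 1 label contain the calls shared by both, and the difference between them was not tested.

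H3K36me3 seldom touched a Pol II site of any class. With its list of WT at 1 h, used for the distances too, it overlapped 7 of the 952 loci called at 1 h only in both labels (0.735%, 0.296 to 1.51), 1.56% (1.31 to 1.85) of those in all 4 lists and 2.22% (2.03 to 2.41) of all loci. Distance to the mark differed more. A H3K36me3 region lay within 5 kb of 14.2% of the 952 loci and 11.1% of the 551 distant ones, against 24.5% of the loci in all 4 lists and 29.5% of the loci called at 0 h only in both labels. For the 87 lost loci over 5 kb from a 1 h site it was 57.5%, with a median distance of 3770 bp against 50685 bp for the 551 gained ones. Of the distant loci, those gained thus lay further from H3K36me3 than those lost; over all 369 lost loci the median distance was 11527 bp, against 38553 bp for the 952 gained.

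Loci that moved up in rank mostly overlapped H3K4me2 before KCl and seldom H3K4me1, though H3K4me1 regions lay close by. Of the 166, 87.3% (81.3 to 92.0) overlapped H3K4me2 at 0 h, near the 85.2% of all constant loci, and 10.8% (6.55 to 16.6) overlapped H3K4me1 at 0 h in WT. In KO at 0 h the H3K4me1 share was 2.41% (0.660 to 6.05), against 10.9% of constant loci. At 1 h in WT an H3K4me1 region lay within 5 kb of 94.6% of them and 86.7% of constant loci. H3K36me3 overlapped 0 of 166 at 0 h in both labels (0 to 2.20%), and 5 at 1 h in WT and 1 in KO. A H3K36me3 region at 1 h lay within 5 kb of 38.6% of them and of 42.1% of the 114 loci that moved down outside regions of all 8 targets, against 24.5% of constant loci. Nearness to H3K36me3 therefore did not tell the loci that moved up from those that moved down. H4K20me1, the mark that the series title gives as the target of LSD1n, covered 15.1% (9.99 to 21.4) of the 166 in WT at 0 h and 24.7% (18.3 to 32.0) in KO, against 8.80% (8.20 to 9.43) and 11.4% (10.8 to 12.1) of constant loci. In KO at 1 h the shares were 12.7% (8.004 to 18.7) and 8.70% (8.10 to 9.33). The series also has H4K20me1 lists of LSD1n WT at 1 h, which were not used for these shares. For the 114 that moved down it covered 9.65% (4.92 to 16.6) in WT and 15.8% (9.63 to 23.8) in KO at 0 h, and 16.7% (10.3 to 24.8) in KO at 1 h, and these intervals overlap those of the loci that moved up.

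In 1 of its 4 lists LSD1 itself was called less often at the new loci than at constant ones. In wild type neurons at 1 h an LSD1 site overlapped 34.0% (31.0 to 37.1) of the 952 loci and 52.4% (51.3 to 53.5) of those in all 4 lists, while at 0 h the shares were 23.3% (20.7 to 26.1) and 22.6% (21.7 to 23.5). Loci in a single 1 h list stood at 14.8% (13.9 to 15.7) at 1 h. In the other 2 lists the intervals overlapped, with 16.2% (13.9 to 18.7) and 17.7% (16.9 to 18.5) in LSD1n WT at 0 h, and 15.3% (13.1 to 17.8) and 16.7% (15.9 to 17.5) in LSD1n KO, whose KCl time the labels do not give. Flag-tagged LSD1n, from neurons labelled R26_LSD1n, overlapped 6.62% (5.12 to 8.39) of the 952 loci and 25.1% (24.2 to 26.1) of the constant ones at 1 h. Flag-tagged LSD1c, from neurons labelled R26_LSD1c, overlapped 10.2% (8.34 to 12.3) and 35.8% (34.8 to 36.9) at 1 h. At 0 h the shares were 1.37% and 3.71% for LSD1n and 5.46% and 23.0% for LSD1c. The lower share at the gained loci was thus not particular to LSD1n, and these lists were not compared within quintiles.

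Loci called at 1 h only in both labels were spread over all 19 chromosomes, from 3.05% of the loci of chromosome 16 (25 of 821) to 5.76% of those of chromosome 13 (57 of 989).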

How the data were processed

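Pol II and histone ChIP-seq lists were used; RNA-seq and GRO-seq are not analysed here. Alignment and calling used Bowtie and HOMER (versions not given) on mm9, per the submitters' processing notes. Pol II sites were called by the authors at a size of 200 bp, at least 500 bp apart, with 4-fold more tags than the local 10 kb, fragments of 150 bp, 1 tag per position and a false discovery rate of 0.001, per the file headers, which name no control. The deposited values are positions, with a score of 1 in every entry, so depth and candidate counts were read from the headers. Chromosomes 1 to 19 were used. Sites overlapping by at least 1 bp were joined into loci, and sites within 5 kb into clusters. Intervals at 95% are exact Clopper-Pearson for shares and exact conditional Poisson for ratios (Python 3.11.15, numpy 2.4.6, scipy 1.17.1; figures with matplotlib 3.10.9). The code was tested on simulated lists with planted classes.

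Regions named are the 10 first-listed new clusters, 5 lost, up to 10 grown and 5 shrunk, the 5 with the most sites and the 5 loci first in all lists; the text gives some. The members and lists were chosen with earlier results of these data known. The ranking of shared loci, the loci named for it, the split at 5 kb from the other time and the comparison with loci of a single list were added after the data were seen. No mm9 annotation was used here, so no gene or sequence is given and the planned gene lists and cell type markers were not run. Positions count from 1. Alternatives were all chromosomes, regions of all 8 targets left out, other overlaps and cluster distances, equal or shorter lists, other lists of a mark and crossed pairing.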

Additional observations from a re-analysis of the deposited data

Results flagged for a closer look

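Pol II sites outside chromosomes 1 to 19 were not used above and were called in every list. On chromosome X there were 341 sites in WT at 0 h, 427 in WT at 1 h, 373 in KO at 0 h and 473 in KO at 1 h, more at 1 h in both labels as on the autosomes. On chromosome Y, 1 site was called in WT at 0 h, 4 in WT at 1 h, 2 in KO at 0 h and 3 in KO at 1 h. On unplaced sequence there were 82 sites in WT and 88 in KO at 0 h, and 88 in WT and 76 in KO at 1 h, so the labels moved in opposite directions there. There is no control library to compare with, and no difference was tested.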

How the results depend on the processing

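No paired analysis was possible because each group has 1 list and no replicate numbers are shared. Of 73 alternative values of 12 results, 51 stayed within the interval of the value reported, or within 1.5 times of a count, and 22 moved. Only the log2 ratios of site number could change sign, and 0 did. The log2 ratios of the times were 0.37 in WT and 0.51 in KO when taken from the share of tags in peaks; with the 0 h lists exchanged they were 0.00188 and 0.30, so in WT the rise in site number rests on the pairing. With equal list lengths new clusters fell from 738 to 378. With the first 5000 sites there were 304 loci at 1 h only and 225 new clusters. With loci joined within 1 kb, loci at 0 h only numbered 191. With clusters of 10 kb, 4 had grown. The H3K4me1 share was 35.5% (WT, 0 h), 30.7% (KO, 0 h) and 51.8% (KO, 1 h) with the other lists, 42.8% at an overlap of 50%, 73.6% within 1 kb, 42.5% with equal lengths and 55.5% over 5 kb from 0 h sites. The H3K4me2 share was 62.3% (WT, 0 h), 45.0% at an overlap of 50%, 65.2% within 1 kb, 59.6% with equal lengths and 44.3% over 5 kb from 0 h sites. The H3K36me3 share within 1 kb was 3.57%. Counts of loci moving up or down in rank ran from 146 to 198 and from 127 to 173. For values set by another list, the cause was not tested. Depth differs between the times in the same direction in both pairs, which limits every count of gained sites.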
